A study of Mus musculus with 16 samples.

Results

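Granzymes are serine proteases that killer lymphocytes store in cytotoxic granules, and perforin forms the pores through which they reach the cytosol of a target cell. The genes described here were Gzma, Gzmk, Gzmb, Gzmc, Gzmd, Gzme, Gzmf, Gzmg, Gzmn and Prf1, 10 of 21911 protein-coding genes on the autosomes, X and Y. They were chosen by name, and every peak was taken that touched a gene or the 20 kb to each side of it. Naive CD8+ T cells keep these loci largely closed, and activation through the antigen receptor with IL-2 signalling is known to open them in effector cells, with T-box factors, RUNX3 and STAT5 among the regulators. Memory cells are known to hold some of them poised. Granzyme A cleaves after basic residues and granzyme B after aspartate, which lets granzyme B activate caspases. Granzyme K is an A-like tryptase, and Gzmc, Gzmd, Gzme, Gzmf, Gzmg and Gzmn are rodent genes beside Gzmb.

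The data were ATAC-seq peak lists of 16 libraries, in which a transposase cuts accessible chromatin and the cut fragments are sequenced. There were 4 groups of 4 libraries. WT TE and WT TM were effector and memory T cells of genotype TPdh+/+, and TPdh-/- TE and TPdh-/- TM were the same cells without the Pdha1 gene of the pyruvate dehydrogenase complex. Per the study's methods, a floxed Pdha1 allele had been removed by Cre under the Cd4 promoter, which acts while T cells develop in the thymus, so CD4+ and CD8+ T cells both lose it. Mice of both sexes and of young adult age were used in the study. The cells were made in culture, with IL-2 for TE and IL-15 for TM after activation. The methods name OT-I cells, whose T cell receptor recognises an ovalbumin peptide, while the legend of the ATAC-seq data names splenic T cells. Neither states whether the 4 libraries of a group came from separate mice, so p-values measure the spread between these libraries. A site open in fewer cells and a site less open in each cell cannot be told apart in such bulk data.

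The lists held 645567 peaks in all, between 2290 and 86637 in a library. Depth is measured here as background coverage, the lowest local fragment coverage that the peak caller used in a library (1st percentile over its peaks), which was 1.18 ± 0.406 in WT TE, 0.324 ± 0.13 in TPdh-/- TE, 0.411 ± 0.107 in WT TM and 0.224 ± 0.0309 in TPdh-/- TM (SD, n = 4 each). Over the 4 groups the lists were longer where coverage was lower, and TPdh-/- groups had the lower mean coverage in each cell type, so depth and genotype cannot be told apart. Pdha1, the deleted gene, had a peak in or within 20 kb of it in 1 library of each WT group, in 2 libraries of TPdh-/- TE and in all 4 of TPdh-/- TM, which does not check the deletion. Markers did not check the cell type either, since between 8 and 14 libraries held a peak at each of 8 CD8 T cell genes, and between 6 and 14 at each of 4 B cell genes.

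The member windows held 102 peaks, 0.0158% of all, on 372.941 kb, which is 0.0137% of the genome. The 10 windows form 4 stretches of GRCm38. Prf1 lies on chromosome 10 (61297833 to 61304680, plus strand). Gzma (113093825 to 113100981) and Gzmk (113171608 to 113225908) lie on the minus strand of chromosome 13. The other 7 genes form the Gzmb cluster on the minus strand of chromosome 14, in the order Gzmb, Gzmc, Gzmf, Gzmn, Gzmg, Gzmd and Gzme along the direction of transcription, between 56117626 and 56262260. Windows of neighbours overlap there, and 16 peaks were counted for 2 or more members.

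The regions shown here are among those with a peak in more than 1 library, 6 of 16 for the Prf1 start and 2 for each of the others. They are the nearest thing to a repeated accessible site at these genes. Overlapping peaks of all libraries were merged into 86 regions, of which 12 were held by 2 or more libraries. The 6 shown were ranked by the number of libraries and then, a choice made after the values were seen, by the highest −log10 q. Each line gives 300 bases of the plus strand around the middle of the summits. The Prf1 start window is chr10:61297255-61297554, the Gzmb upstream windows are chr14:56264457-56264756 and chr14:56270477-56270776, the other Prf1 windows are chr10:61280455-61280754 and chr10:61306307-61306606, and the Gzmn intron window is chr14:56170195-56170494. Capitals mark a pair of different bases repeated at least 8 times without a break.
Prf1 start: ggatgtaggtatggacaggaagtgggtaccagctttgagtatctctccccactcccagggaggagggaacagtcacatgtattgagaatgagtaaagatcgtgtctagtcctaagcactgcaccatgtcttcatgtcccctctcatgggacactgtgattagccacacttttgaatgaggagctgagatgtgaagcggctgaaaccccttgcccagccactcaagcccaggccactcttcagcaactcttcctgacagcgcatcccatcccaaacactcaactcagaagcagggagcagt
Gzmb upstream, near: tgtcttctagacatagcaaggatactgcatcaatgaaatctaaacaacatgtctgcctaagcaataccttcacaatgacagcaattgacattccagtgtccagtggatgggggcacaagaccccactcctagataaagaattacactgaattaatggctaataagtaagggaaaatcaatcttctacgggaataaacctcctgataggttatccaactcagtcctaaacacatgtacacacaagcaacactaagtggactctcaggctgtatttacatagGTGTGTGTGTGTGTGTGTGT
Prf1 upstream: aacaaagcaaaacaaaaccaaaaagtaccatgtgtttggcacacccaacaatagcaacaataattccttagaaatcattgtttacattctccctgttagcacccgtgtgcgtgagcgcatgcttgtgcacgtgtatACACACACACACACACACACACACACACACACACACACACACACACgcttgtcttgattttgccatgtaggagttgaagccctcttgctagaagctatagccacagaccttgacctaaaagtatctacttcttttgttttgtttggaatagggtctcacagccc
Gzmb upstream, far: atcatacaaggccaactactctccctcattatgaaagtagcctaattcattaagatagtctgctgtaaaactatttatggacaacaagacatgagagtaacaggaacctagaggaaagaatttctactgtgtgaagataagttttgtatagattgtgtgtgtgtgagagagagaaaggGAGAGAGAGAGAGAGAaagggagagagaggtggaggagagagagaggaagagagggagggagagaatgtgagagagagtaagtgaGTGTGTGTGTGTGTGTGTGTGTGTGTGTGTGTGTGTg
Prf1 downstream: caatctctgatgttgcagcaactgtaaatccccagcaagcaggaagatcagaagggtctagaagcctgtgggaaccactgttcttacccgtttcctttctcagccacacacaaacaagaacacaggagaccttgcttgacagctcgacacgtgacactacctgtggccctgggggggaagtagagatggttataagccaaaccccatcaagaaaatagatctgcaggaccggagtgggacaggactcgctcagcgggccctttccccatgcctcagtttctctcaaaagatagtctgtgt
Gzmn intron: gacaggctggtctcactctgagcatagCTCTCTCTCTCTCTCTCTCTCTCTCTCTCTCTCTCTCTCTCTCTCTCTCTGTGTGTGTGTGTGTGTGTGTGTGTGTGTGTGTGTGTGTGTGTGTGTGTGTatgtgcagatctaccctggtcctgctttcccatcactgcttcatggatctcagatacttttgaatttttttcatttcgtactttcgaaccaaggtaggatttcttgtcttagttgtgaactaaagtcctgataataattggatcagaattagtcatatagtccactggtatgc

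Such a repeat stood in 4 of the 6 windows, and the Prf1 start window had none. This search was added after the sequences had been seen. Over all 12 member regions held by 2 or more libraries it was found in 6, beside 47.7% of the 68920 such regions of the genome. Among all member regions, most of them held by a single library, it was found in 23 of 86 (26.7%), beside 23.8% of 525048. The summit of WT TM replicate 4 lay inside the AC run of the Prf1 upstream window, and the same library's Gzmn summit lay inside the GT run of the Gzmn intron. Both strands of the 6 windows were also searched for fixed strings of letters, motifs of factor families known to act at these genes, and none matched in full. The motifs were TCACACNT for T-box factors, TGTGGTT for RUNX, TGANTCA for AP-1, TTCNNNGAA for STAT and CCGGAAGT for ETS, which occurred in 4.77%, 6.44%, 7.55%, 7.89% and 1.16% of the recurring regions of the genome. TGANTCA and TTCNNNGAA read the same on both strands. Shorter or variant forms were not searched, and the Prf1 start window holds CAGGAAGT, which differs from the ETS string in its second base.

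**Figure D1:**
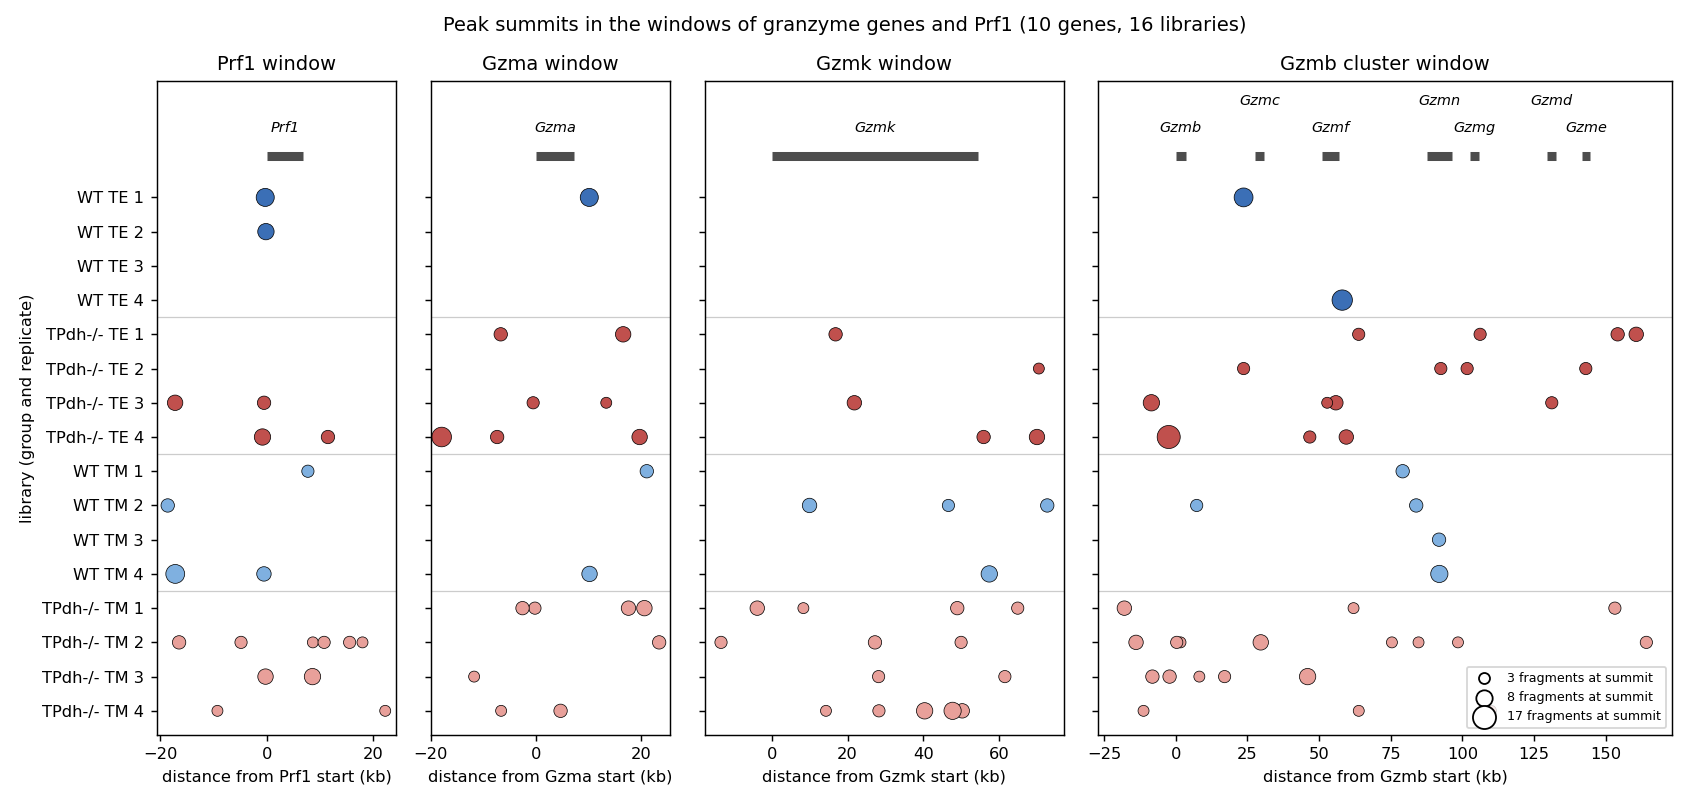
Summits of the 102 peaks in the 4 stretches, with distance from the gene start along the direction of transcription (kb) on the x axis and the 16 libraries on the y axis. The size of a circle is the number of fragments at the summit and grey bars are genes. Most summits stand alone in their column, and those of 6 libraries line up just before the Prf1 start.

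Peaks at these genes were weak. The pileup, the number of fragments over the summit, was between 3 and 17 with a median of 5, and 46 peaks (45.1%) had 4 or fewer. Their −log10 q, the strength given by the peak caller, was between 1.31 and 17.4 with a median of 2.57, beside 2.35 for all peaks, and 13 (12.7%) reached 5, beside 12.2% of all peaks. Fold enrichment over local background was between 2.98 and 12.5 with a median of 4.22, beside 4.10 for all peaks. In these measures the member peaks were close to an ordinary peak of the lists. The summits lay between genes for 56 peaks, in an intron for 39 and in an exon for 7. A peak of another library overlapped 28 of them (27.5%), beside 29.3% of all peaks.

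The other member regions held by more than 1 library were each held by 2. At Gzmb, -8544 and -8189 bp from the start, TPdh-/- TE replicate 3 and TPdh-/- TM replicate 3 had peaks with −log10 q of 7.16 and 3.75. At Gzmc, -3967 and -3961 bp from the start, WT TE replicate 1 and TPdh-/- TE replicate 2 had 4.603 and 2.58. At Gzma a region -6725 to -6650 bp from the start had 2.13 and 2.01 in TPdh-/- TE replicate 1 and TPdh-/- TM replicate 4, and one in a Cdc20b intron past the gene had 4.12 and 2.81 in WT TM replicate 4 and WT TE replicate 1. At Gzmk an intron region was shared by TPdh-/- TM replicates 3 and 4, and on the Gzmf side of the Gm4022 antisense gene one was shared by TPdh-/- TE replicate 1 and TPdh-/- TM replicate 4.

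Single strong peaks stood out in few libraries. The strongest, with 17 fragments and a −log10 q of 17.4, lay 2498 bp upstream of Gzmb in TPdh-/- TE replicate 4, and the same region had 5 fragments and 3.57 in TPdh-/- TM replicate 3. TPdh-/- TE replicate 4 also had a peak of 12 fragments and 10.2 at 17956 bp upstream of Gzma, which overlapped no peak of another library. WT TM replicate 4 had a peak of 11 fragments and 8.49 at -17215 bp from the Prf1 start, in a region where TPdh-/- TE replicate 3 had 7 fragments and 4.73. These 3 peaks, at Gzmb, Gzma and Prf1, were the ones left when each list was cut to its 2290 strongest peaks, the length of the shortest list.

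Prf1, which encodes perforin, had the region held by more libraries than any other member region, and it lay at the gene start. A merged region at chr10:61296846-61297925 was held by 6 of 16 libraries, with summits from -813 to -164 bp relative to the start. The −log10 q was 2.92 in WT TE replicate 1, 3.45 in WT TE replicate 2, 3.43 in TPdh-/- TE replicate 3, 5.35 in TPdh-/- TE replicate 4, 2.80 in WT TM replicate 4 and 4.25 in TPdh-/- TM replicate 3. The 4 groups therefore all had it, in 2, 2, 1 and 1 libraries, and the values of WT and TPdh-/- overlapped. In WT TE both Prf1 peaks lay here and had 8 and 10 fragments. Regions held by at least 4 libraries were tested for the number of libraries with a peak (Fisher's exact test, two-sided), and this was the only such region at a member. Fisher's exact test gave p = 1.0 for it in each of the 4 comparisons of groups, where 0.876% to 1.18% of 9244 such regions were called at p below 0.05.

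**Figure D2:**
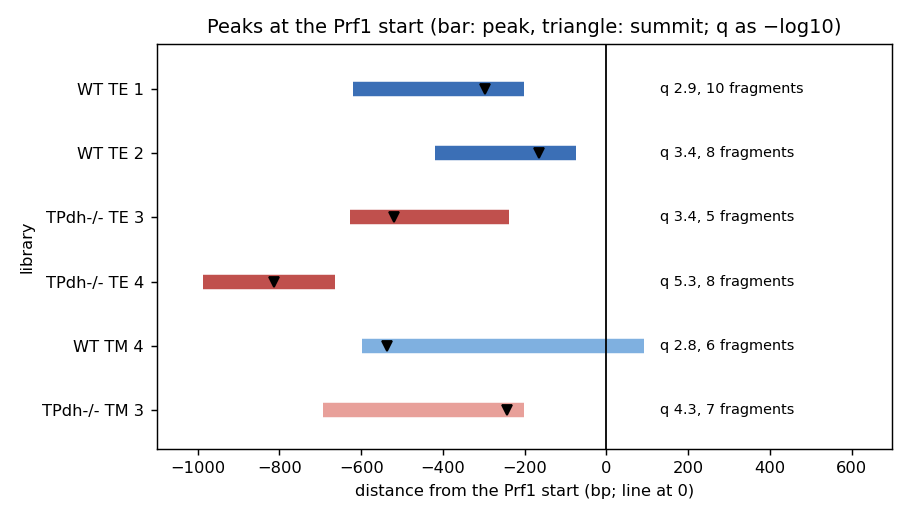
Peaks at the Prf1 start, with distance from the start (bp) on the x axis and 1 row for each of the 6 libraries that had one. Bars span the peaks, triangles mark summits, and the text gives −log10 q and the fragments at the summit, between 5 and 10.

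Prf1 had 14 further peaks. A library is said to hold a gene when it has a peak in the window. Prf1 was held by 10 of 16 libraries, 2 in each TE group and 3 in each TM group. A peak lay 6620 and 6690 bp past a transcript start of Prf1 in TPdh-/- TM replicates 3 and 2, with −log10 q of 5.82 and 1.38. TPdh-/- TM replicate 2 alone had 6 of the 20 Prf1 peaks, each with 3 to 5 fragments. Over both cell types 5 of 8 TPdh-/- and 5 of 8 WT libraries held it, and the difference in strength on the scale log2(1 + highest −log10 q) was 0.12 (p = 0.844, exact permutation test).

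Of the 102 member peaks 11 (10.8%) had the summit within 1000 bp of an annotated coding start, beside 11.03% of all peaks. The start was a member's for 9 of them, and that of Ctsg or Esm1 for the other two. A summit at its own start was found for Prf1 in 6 libraries, for Gzma in 2, for Gzmb in 1 and for the other 7 members in none. Of all coding genes 73.5% had such a summit in at least 1 library, 23.9% in 6 or more, and the median was 2 libraries. The Gzma summits lay at -223 and -562 bp from the start, in TPdh-/- TM replicate 1 and TPdh-/- TE replicate 3, with −log10 q of 2.57 and 2.33, and the 2 peaks overlapped. The Gzmb summit lay 296 bp past the start in TPdh-/- TM replicate 2, with 4 fragments.

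The RefSeq promoters of the 10 members, 250 bases before the start in GRCm38.p6, were searched for the same motifs. TGTGGTT was present in 7 of them, beside 5.27% of all 32851 promoters. Counted from the start, it ran from -34 to -28 in Gzmb and from -51 to -45 in Gzma. In Gzmc, Gzmd, Gzme, Gzmf and Gzmg it lay between -196 and -169, in promoters that are copies of each other and do not count as separate observations. The Gzmb promoter also held TGAGTCA, and that of Gzmk TCACACGT. These are matches of letters and not sites shown to be bound.

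The promoters of Gzmd and Gzme are shown because they are near-identical copies. Around both starts BWA tagged part of the reference sequence as having another or a split alignment, as given below. They were identical at 238 of 251 aligned positions (94.8%), and capitals mark the bases that differ. Both are written 5′ to 3′ along the gene, from chr14:56132594-56132843 and chr14:56120626-56120875, minus strand.
Gzmd promoter: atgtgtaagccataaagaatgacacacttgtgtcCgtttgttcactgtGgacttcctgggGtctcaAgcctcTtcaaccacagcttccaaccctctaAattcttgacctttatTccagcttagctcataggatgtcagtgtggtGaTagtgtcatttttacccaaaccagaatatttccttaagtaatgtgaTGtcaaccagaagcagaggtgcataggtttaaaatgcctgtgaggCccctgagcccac
Gzme promoter: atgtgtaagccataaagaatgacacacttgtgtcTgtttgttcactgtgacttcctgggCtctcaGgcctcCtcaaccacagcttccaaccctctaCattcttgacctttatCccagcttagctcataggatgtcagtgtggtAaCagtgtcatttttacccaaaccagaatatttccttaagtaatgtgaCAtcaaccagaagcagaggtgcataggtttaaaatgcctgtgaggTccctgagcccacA

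The authors had dropped reads that BWA tagged with another or a split alignment. When 100-base stretches of the reference, taken every 5 bases, were aligned back to chromosomes 10, 13 and 14, the tag was given to 40.1% of those in Gzmd, 41.0% in Gzme, 26.3% in Gzmg, 16.03% in Gzmc, 9.66% in Gzmf, 7.22% in Gzmb and 2.01% in Gzmn. It was given to 0.969% in Gzmk, 0.815% in Prf1 and 0.0% in Gzma. Copies on other chromosomes were not sought. Over the windows in which libraries were counted, it was given to 25.0% of stretches for Gzmd and 17.4% for Gzme, and around their starts to 33.2% and 30.2%. Its part in their low counts was not tested. In the Gzmf window a further 36.3% of stretches had no tag but a mapping quality of 0, which BWA gives where no single place fits best. Of the 10 Gzmf peaks 3 lay mostly in such sequence.

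**Figure D3:**
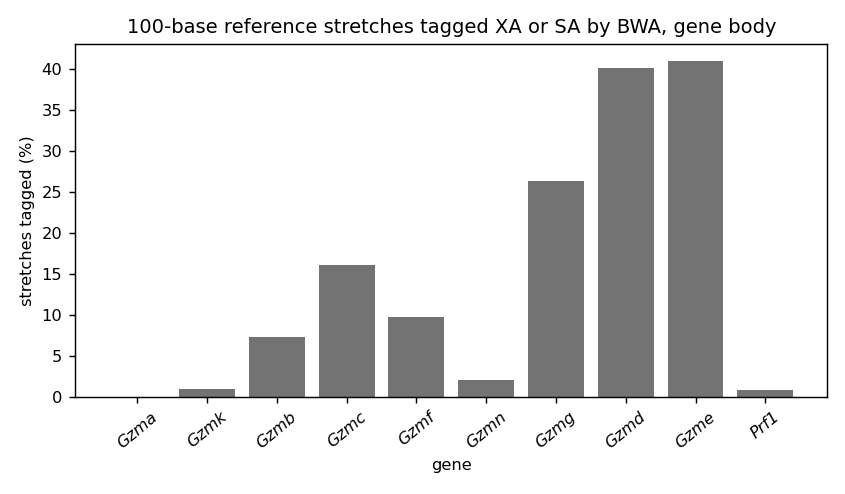
Share of 100-base reference stretches of each gene, start to end, that BWA tagged as having another or a split alignment (y axis, percent), for the 10 members on the x axis. Gzmd and Gzme stand highest at 40.1% and 41.0%, and Gzma is at 0.0%.

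The members were held by fewer libraries than most genes. Gzma, Gzmk and Prf1 were held by 10 of 16 libraries, Gzmf and Gzmn by 8, Gzmb and Gzmg by 7, Gzmc and Gzme by 5 and Gzmd by 3. Their median was 7.5 libraries, beside 11 for all coding genes. Member windows are short, with a median of 44.8 kb beside 57.4 kb for all coding genes. Among the 7762 genes with windows of 40 to 50 kb the median was 8.0 libraries, and among the 9 members of that size it was 7.0. The Gzmk window, 94.301 kb, is longer because GENCODE gives the gene a transcript that starts far upstream. The Prf1 and Gzma windows had 1.80 and 1.61 times the peaks expected from their length, and the Gzmk and Gzmb cluster windows 1.03 and 0.938 times.

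The groups differed in window peaks. There were 1.25 ± 1.26 in a WT TE library, 7.75 ± 2.22 in TPdh-/- TE, 3.75 ± 2.22 in WT TM and 12.75 ± 3.59 in TPdh-/- TM (SD, n = 4 each). Within TE every TPdh-/- library had more than every WT library, and likewise within TM, with 5 to 10 against 0 to 3 and 10 to 18 against 1 to 6. Relative to the number that list length and window length would give, the pooled ratios were 1.03, 1.11, 0.861 and 1.34 in the same order. That of WT TE rested on 5 peaks and was 0.545 without replicate 1 and 1.80 without replicate 2, and leaving out 1 library gave 0.636 to 1.21 in WT TM and 1.25 to 1.37 in TPdh-/- TM. The members held per library were 1.25 ± 1.26, 6.25 ± 0.5, 3.75 ± 1.5 and 7.0 ± 1.83, while the percentage of all coding genes held was 38.1, 72.3, 57.2 and 82.6.

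**Figure D4:**
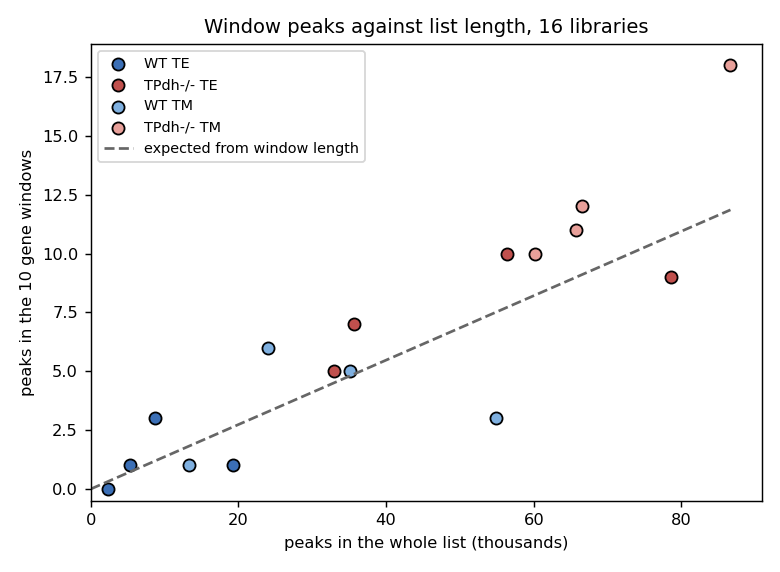
Peaks in the 10 gene windows (y axis) against peaks in the whole list (x axis, in units of 1000 peaks), 1 point per library and 1 colour per group. The dashed line is the number expected from the length of the windows, and the 4 TPdh-/- TM points lie above it while each other group has points on both sides.

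The comparisons ask whether loss of the complex changes open chromatin at these genes in TE and TM, and whether TM and TE of 1 genotype differ. They share groups and are not independent of each other. For presence, the numbers of libraries that held a gene were compared (Fisher's exact test, two-sided). For strength, log2(1 + highest −log10 q), with 0 for no peak, was compared by an exact permutation test over 70 arrangements. The smallest p of either is 0.0286, and a gene was called at an unadjusted p below 0.05. Over all coding genes no adjusted p fell below 0.05 in any comparison by either test, so each call below is an unadjusted one.

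Gzmk, the A-like tryptase, was called in TE. All 4 TPdh-/- TE libraries had a Gzmk peak, with highest −log10 q of 2.13, 1.51, 3.62 and 3.67 in replicates 1 to 4, and no WT TE library had one. The groups did not overlap (presence, Fisher's exact test, p = 0.0286, adjusted p = 0.573). It was 1 of 10 members called by presence, where 4.99% of all coding genes were (4.98% higher in TPdh-/- TE), and the only one called by strength, with a difference of 1.85 (exact permutation test, p = 0.0286, adjusted p = 0.312), where 9.15% of genes were (7.85% higher in TPdh-/- TE). The 5 peaks had 3 to 7 fragments, and none overlapped a peak of another library of the group. They lay from 16845 to 70488 bp past the GENCODE start, in introns or beyond the gene end. For the peaks of replicates 1 and 3 the nearest coding start was that of Esm1, an endothelial proteoglycan gene inside the Gzmk window, at 596 and 5549 bp. Counting each peak for the nearest start alone ended the Gzmk call (p = 0.429, Fisher's exact test). With peaks of −log10 q of at least 5 alone, no TE library had a Gzmk peak.

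Granzyme B and its neighbours gave no call in TE. Gzmb had 7.16 and 17.4 in TPdh-/- TE replicates 3 and 4 and no peak in the other 6 libraries. Gzme had 2.97, 2.58 and 2.06 in replicates 1 to 3 of TPdh-/- TE and none in WT TE (p = 0.143, Fisher's exact test, which 3 against 0 libraries cannot pass). Gzma had 3.98, 2.33 and 10.2 in 3 TPdh-/- TE libraries and 2.81 in WT TE replicate 1. Over the 10 members the median difference in strength was 0.84, beside 0.64 over all coding genes, and 9 members were held by more libraries of TPdh-/- TE, as were 72.3% of all genes. Without TPdh-/- TE replicate 4, Gzme joined Gzmk and 2 members were called by each test.

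In TM the call fell on Gzmf. Its highest −log10 q was 1.56, 1.38, 6.37 and 2.01 in TPdh-/- TM replicates 1 to 4, and no WT TM library had a peak (presence, Fisher's exact test, p = 0.0286, adjusted p = 1.0; 1.15% of genes were called, 1.14% higher in TPdh-/- TM). The 4 peaks lay at 4 different places, that of 6.37 was also counted for Gzmc, and that of 1.38 was also counted for Gzmn, whose start was the nearer one. Those of replicates 1 and 4 lay mostly in sequence of mapping quality 0. Without such peaks, an alternative chosen after seeing the data, 2 TPdh-/- TM libraries held Gzmf and the call ended (p = 0.429, Fisher's exact test). Gzmb had 3.22, 4.44, 3.75 and 2.01 in the 4 TPdh-/- TM libraries, and 1.45 in WT TM replicate 2 alone. These 2 members were called by strength, with differences of 1.77 for both (exact permutation test, p = 0.0286, adjusted p = 0.600), where 4.76% of genes were called (4.6% higher in TPdh-/- TM). With fold enrichment in place of −log10 q, Gzmb lost its call (p = 0.0571, exact permutation test), Gzmf kept it, and Gzmn was called in the other direction, higher in WT TM. None of the 9 Gzmb peaks of TPdh-/- TM overlapped a peak of another library of that group. Leaving out any 1 of the 4 TPdh-/- TM libraries left 1 member called by strength, Gzmf, and leaving out WT TM replicate 2 raised the presence calls to 2, with Gzmb. The median difference in strength was 0.97 over the members and 0.65 over all genes.

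The other genes did not pass in TM. Gzma was held by 4 of 4 TPdh-/- TM libraries, with 5.58, 3.31, 1.59 and 3.99, and by 2 of 4 WT TM, with 2.84 and 4.12. Gzmk was held by 4 of 4, with 4.96, 3.31, 2.61 and 7.01, and by 2 of 4, with 2.84 and 5.87. Both ranges overlapped. Prf1 gave a difference in strength of -0.03 (p = 0.943, exact permutation test).

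**Figure D5:**
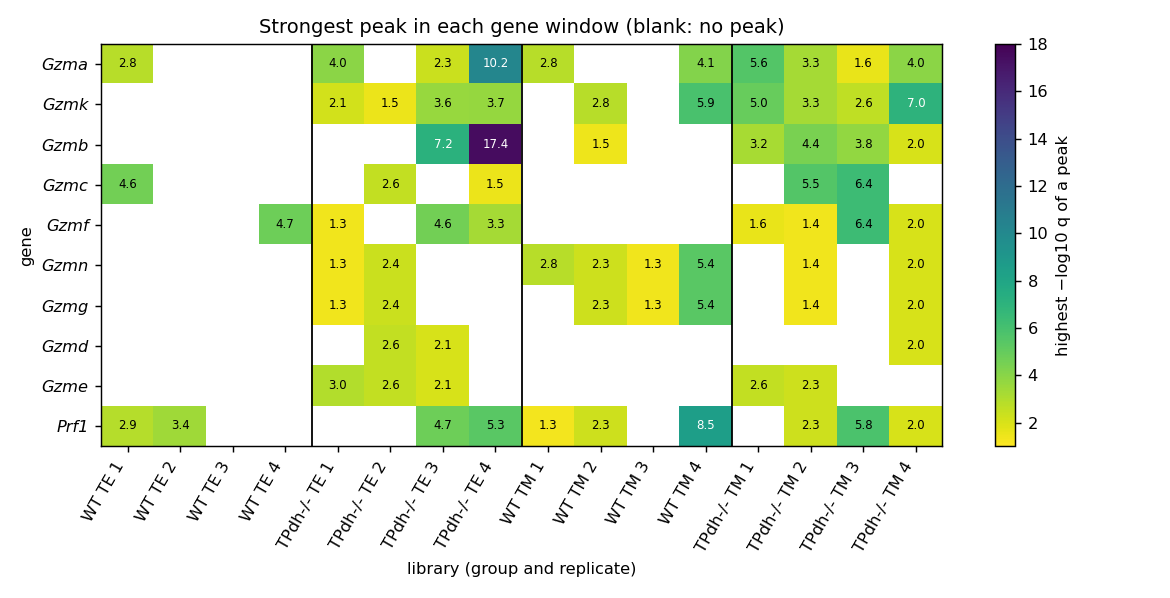
Highest −log10 q of a peak in the window of each member (rows) in each of the 16 libraries (columns), with vertical lines between groups and blanks where there was no peak. The WT TE columns are nearly blank, with 5 cells filled, and the Gzmn row is filled across the 4 WT TM libraries and blank in WT TE.

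Between TM and TE of WT cells, Gzmn was called. It had −log10 q of 2.84, 2.30, 1.34 and 5.37 in WT TM replicates 1 to 4 and no peak in WT TE (presence, Fisher's exact test, p = 0.0286, adjusted p = 1.0; 1.75% of genes were called, 1.74% higher in WT TM). The difference in strength was 1.89 (p = 0.0286, exact permutation test, adjusted p = 0.660; 4.33% of genes were called, 3.06% higher in WT TM). With 50 kb to each side the Gzmn call ended and Gzmk was called instead. The peaks of replicates 3 and 4 overlapped in a Gzmn intron, the last of the sequences shown. Those of replicates 1 and 2 lay 8497 and 3766 bp upstream of the start. Gzmg shared 3 of these 4 peaks through its own window, and without WT TM replicate 1 it was called as well. Between TPdh-/- TM and TPdh-/- TE no member was called by either test, where 0.283% of genes were called by presence (0.256% higher in TPdh-/- TM) and 3.49% by strength (3.22% higher). The median difference in strength over the members was 0.42 in WT and 0.23 in TPdh-/-, beside 0.36 in each over all genes.

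Over both cell types together, genotype was permuted within TE and TM in 4900 arrangements. Members were held by more TPdh-/- libraries for Gzmk (8 of 8 against 2 of 8, p = 0.00612), Gzmf (7 against 1, p = 0.0135), Gzmb (6 against 1, p = 0.0306) and Gzme (5 against 0, p = 0.0306), all exact permutation tests with adjusted p of 0.294 or more. These were 4 of 10 members, where 12.3% of all coding genes were called. By strength 5 were called, where 22.7% of genes were (22.4% higher in TPdh-/-), Gzma being the fifth with a difference of 1.23 (p = 0.0486, exact permutation test). The other differences were 1.53 for Gzmk, 1.79 for Gzmb, 1.297 for Gzmf and 1.12 for Gzme, and the smallest adjusted p was 0.104. Gzmf, Gzmb and Gzme are neighbours, but no peak was counted for more than 1 of these 3. In lists cut to 2290 peaks 3 pairs of a member and a library were left, at 3 members, so no member could be called in any comparison. Without WT TE replicate 2, WT TE replicate 3, TPdh-/- TE replicate 3 or TPdh-/- TE replicate 4, the strength calls fell to 3, without Gzma and Gzmf. The same 3 were left when peaks mostly in sequence of mapping quality 0 were left out, and by presence Gzmf then lost its call. Gzma lost its call in 11 of the 16 fits that left out 1 library, and Gzmf in 5.

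Gzmn and Gzmg were held by more WT TM than TPdh-/- TM libraries, with no call by presence or by −log10 q. Gzmn was held by 4 of 4 against 2 of 4, with a difference in strength, TPdh-/- minus WT, of -1.18 (p = 0.0857, exact permutation test), and Gzmg by 3 of 4 against 2 of 4, with -0.70 (p = 0.4, exact permutation test). Gzmc was held by 4 TPdh-/- libraries and 1 WT library, and Gzmd by 3 and 0, without a call. The Gzmd peaks had 3 or 4 fragments each.

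Other genes of the granule pathway were held about as widely as genes in general. The 20 listed were held by 6 to 15 libraries, and their median of 11 is that of all coding genes, with windows of differing length. Lyst, a lysosomal trafficking regulator, and M6pr, a mannose 6-phosphate receptor that carries granule enzymes, were held by 15, and Gzmm, a further granzyme, by 14, as were Srgn, Rab27a and Stx11. By presence none was called in the 4 comparisons of groups. By strength 1 of 20, Lamp1, was called in TPdh-/- TM against TPdh-/- TE, with a difference of 1.84, beside 3.49% of all coding genes. Over both cell types 4 of 20 were called by presence and 7 of 20 by strength, all higher in TPdh-/-, beside the 12.3% and 22.7% of all coding genes given above. Ctsh, a cathepsin, was held by 6 of 8 TPdh-/- and 0 of 8 WT libraries (p = 0.0102, exact permutation test, adjusted p = 0.294). The others by presence were Serpinb6b, a serpin, and the fusion proteins Stxbp2 and Vamp8. Srgn, the proteoglycan of the granule matrix, Serpinb9, the inhibitor of granzyme B, and Ap3b1, an adaptor subunit, were added by strength.

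Regulators were held by 10 to 15 libraries with a median of 12, Prdm1 by 15 and Stat5b and Zeb2 by 14. Tbx21, the T-box factor T-bet, was called by strength in TE (difference 1.83, p = 0.0286, exact permutation test) and over both cell types. It was 1 of 10 regulators called in TE, beside 9.15% of all coding genes. Eomes, Stat5b and Il2rg had differences of -0.10, -0.54 and -0.89 there, and the others had differences above 0. In TPdh-/- TM against TPdh-/- TE 1 of 10 was called by strength, Stat5b with a difference of 0.60, beside 3.49% of genes. Over both cell types Il2rb, a chain of the IL-2 and IL-15 receptors, was called by presence with 8 of 8 TPdh-/- and 3 of 8 WT libraries and by strength with a difference of 1.15, and Prdm1 was called by strength. These were 1 of 10 regulators by presence and, with Tbx21, 3 of 10 by strength, beside 12.3% and 22.7% of all coding genes. The chymase and cathepsin G genes beside the Gzmb cluster, which mast cells and myeloid cells use, were held by 3 to 10 libraries with a median of 6.0. Cma1 was held by the most, 10, followed by Cma2 with 8. By strength 1 of these 8 genes, Cma1, was called over both cell types, with a difference of 1.35, beside 22.7% of all coding genes. Marker genes of other cells also gave calls. Kit, a mast cell receptor, was held by no WT TE library and by all 4 libraries of each other group. Of 4 mast cell and basophil genes it alone was called in TE, by presence and strength (4.99% and 9.15% of all coding genes). The same held between WT TM and WT TE (1.75% and 4.33%). Over both cell types 2 of 4 B cell genes, Cd79a and Pax5, were called by strength, beside 22.7% of genes. So were 2 of 4 myeloid genes, Itgam and Csf1r, and Csf1r was called by presence, beside 12.3%. Without a call, the myeloid gene Spi1 had differences of -0.88 in TE and -0.22 in TM, and Lyz2 had 1.22 and -0.22. Between WT TM and WT TE, where 4.33% of all coding genes were called by strength, 1 of 8 CD8 T cell genes was. It was Lck, a T cell kinase, with a difference of -2.18. The other 7 had differences above 0 without a call, and the list's median was 1.18. Of the 2 CD4 T cell genes Cd4 was called, with a difference of 2.13, and Zbtb7b had -1.06 without a call. Their part in the values of the members was not tested.

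Among coding genes outside the member windows, those whose highest −log10 q ran most like a member's over the 16 libraries were sought. For Prf1 they were Ssx2ip, Pllp and Zfp952 with Pearson r of 0.898, 0.886 and 0.879, for Gzmk Figla with 0.921 and for Gzma Mansc4 with 0.919. For Gzmb it was Akr1c6 with 0.987. Gzmb had its highest value, 17.4, in TPdh-/- TE replicate 4, and the part of that library in r was not tested. For Gzme, Gzmf, Gzmg and Gzmc the best were Gm8212 with 0.955, Zc3h8 with 0.901, Ido1 with 0.887 and Tnfsf15 with 0.830. For Gzmn Tas2r123 and Tas2r116 tied with 0.849. All points share the same libraries and list lengths. Each r is the highest found in a search over coding genes held by at least 4 libraries, and such a search picks high values by itself.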

How the data were processed

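ATAC-seq had been run on 16 libraries, and the deposited peak lists were analysed. Per the study's methods and the submitters' processing notes, the authors trimmed reads with Trimmomatic, aligned them to GRCm38 with BWA 0.7.17, dropped reads tagged XA or SA and reads in blacklisted regions, and called peaks with MACS2 2.2.7.1. Each deposited list gives a score, a fold enrichment (a ratio of summit pileup to background, with 1 added to both), a −log10 p-value, a −log10 q-value and a summit offset, none scaled between libraries.

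Summit pileup and background were recovered as the whole number and background that give the deposited fold and p-value within 0.001 on the −log10 scale. Background coverage is the 1st percentile over a library's peaks, and ranged from 0.173 to 1.55. Read totals were not analysed here. Genes came from GENCODE M21, promoters from RefSeq (GRCm38.p6, 10 of 10 members matched). Tests ran over 21911 genes with Benjamini-Hochberg adjustment, and the code was tested on simulated data. Python 3.11.15, scipy 1.17.1 and BWA 0.7.19 were used. Members, lists and tests were chosen with earlier results of these data known. All 10 members were named, and of the granule, regulator and neighbour lists the genes called in any comparison and up to 3 held by most libraries, with ties given. Marker genes outside this rule were chosen after their values were seen.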

Additional observations from a re-analysis of the deposited data

Results flagged for a closer look

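Several kinds of value were screened: library measures, member strength in groups where all 4 libraries held the gene, and the genotype effect in TM against that in TE. In 26 groups of 4, the extreme library's gap was compared with Dixon's critical value, which chance passes in about 1 of 20 groups, and 2 groups passed. TPdh-/- TE replicate 3 held 7 members where the other 3 libraries of its group held 6. Where the other 3 counts are equal, the gap as a share of the range is 1 whatever its size, so this group passed by its ties. WT TM replicate 3 had a background coverage of 0.572, beside 0.354 to 0.364 in the other 3, and it held 2 members, with 1 window peak.

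The genotype effect on Gzmn strength was lower in TM than in TE by a difference of -1.93 (permutation within genotype, exact, p = 0.0404, adjusted p = 0.742). Shuffling TM and TE within a genotype takes them as alike in each genotype. So this p cannot tell unequal genotype effects from the WT TM against WT TE difference, which was 1.89, beside -0.04 in TPdh-/-. Gzmn was held by 4 of 4 WT TM, 2 of 4 TPdh-/- TM, 0 of 4 WT TE and 2 of 4 TPdh-/- TE libraries. It was the only 1 of 10 members that passed, and the result did not pass adjustment. The share of all coding genes passing this screen is not given here, so 1 of 10 cannot be set beside it.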

How the results depend on the processing

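Calls depended on window and list length. By presence, with no flank or with 5 kb to each side, 0 members were called in TE, in TM and in WT TM against WT TE, and 1 (Gzmk) over both cell types. With 50 kb, 0 were called in TM and 1 (Gzmk) over both, and in WT TM against WT TE the call moved from Gzmn to Gzmk. Equal-sized lists, a −log10 q of at least 5 and a fold of at least 5 each left 0 in these 4 comparisons, and equal-sized lists left 0 by strength. Of 73 pairs of a member and a library that held it, they kept 3, 14 and 25. The 3 pairs of the equal-sized lists were at 3 members, so no call was possible there. Counting a peak for the nearest start alone left 0 in TE and TM and 2 (Gzmb and Gzmf) over both. Summits in place of overlaps, and fold or rank within the list in place of −log10 q, left the counts within 1.5 times, although in TM fold called Gzmn, higher in WT, in place of Gzmb, higher in TPdh-/-. The cause was not tested, except that the stricter lists hold fewer peaks. No region in the member windows was held by 4 libraries in equal-sized lists or at −log10 q of at least 5, so neither gave a region value.

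Leaving out the 4 member peaks that lay mostly in sequence of mapping quality 0, an alternative chosen after seeing the data, left 0 by presence and 1 by strength (Gzmb) in TM. Over both cell types it left 3 by presence and 3 by strength (Gzmk, Gzmb and Gzme each time), and the other counts stayed the same.

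Leaving out 1 library gave 1 to 2 members by either test in TE, in TM and in WT TM against WT TE. Over both cell types it gave 4 to 5 by presence and 3 to 5 by strength, and TPdh-/- TM against TPdh-/- TE and the regions stayed at 0.

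Libraries of the same replicate number did not deviate together (correlation of deviations -0.0491 to 0.12, beside -0.112 to 0.0905 for other pairs), and 4 of 16 correlated best with their own number. With the number as a block, 0 members were called by presence or strength in TE, in TM and in WT TM against WT TE, where 4 pairs cannot give p below 0.125, and over both cell types 2 were called by presence (Gzmk and Gzmf) and 4 by strength (without Gzme). The member peaks had as few as 3 fragments in TPdh-/- libraries and no fewer than 8 in WT TE, and what depth contributes was not tested.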
